A study of Mus musculus with 8 samples.

Results

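The genes described here are the 8 reactive gliosis genes Serpina3n, Gfap, Vim, Lcn2, Cd44, Osmr, Steap4 and S1pr3, listed by symbol out of 32502 genes listed in any of the deposited tables. All 8 were listed in at least 1 table, and none was used to cluster the cells or to name a cell class. The 8 Drop-seq libraries came from brain cell suspensions of C57BL/6 mice (C57BL/6N by the study's methods) that were wild type (WT, Irg1/Acod1 +/+) or Acod1 knock-out (KO, Irg1/Acod1 -/-). Naive libraries came from untreated brain, 1 WT and 1 KO, and each pooled a pair of mice. Tumour-bearing libraries came from mice implanted with 500 GL261 cells, a mouse glioma line derived from this strain, and the tumour region was taken at an early (5 to 10 mm3), intermediate (20 to 25 mm3) or late (30 to 35 mm3) volume from 1 WT and 1 KO mouse each. Ages were not given in the labels, and no library has a second library of the same genotype and stage. The KO allele carries an inserted cassette, sex differed between the genotypes at the early and the intermediate stage, and all suspensions were depleted of myelin. Naive tissue was brain without a tumour and tumour-bearing tissue was dissected from the tumour, so the presence of a tumour and the region sampled cannot be told apart in any comparison of the naive and tumour-bearing libraries.

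Reactive gliosis is the response of glial cells, chiefly astrocytes, to injury, inflammation or a growing mass in the brain. Astrocytes thicken their processes, build more of the intermediate filaments GFAP and vimentin, secrete proteins such as the protease inhibitor SERPINA3N and the iron-siderophore carrier lipocalin 2, and raise surface receptors such as CD44 for hyaluronan, OSMR for oncostatin M and S1PR3 for sphingosine-1-phosphate. Oncostatin M and interleukin 6 type cytokines act through OSMR or related receptors, JAK kinases and STAT3. Several of the same genes are also used by other brain and blood cells, which is why each gene is given below by cell class.

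In the 5698 cells kept, the classes were tumour cells (3366), macrophage-like cells (452), microglia-like cells (377), oligodendrocytes (368), astrocytes (288), endothelial cells (270), lymphocytes (185), oligodendrocyte precursor cells (OPCs, 64), ciliated ependymal-like cells (65), mural or fibroblast cells (58), smaller classes and 36 cells left unnamed. Astrocytes carried their 8 marker genes at 30230 to 36730 CPM (UMIs per 1000000 UMIs of the class in a library) in every library summed, with all 8 detected in each group, and oligodendrocytes carried their 7 at 75310 to 104200. The 64 OPCs came only from tumour-bearing libraries, and the 2 naive libraries held 4 cells of the tumour class. The tables held 2885345 to 9950713 UMIs each, and the kept cells had a median of 2607.5 to 5642.5 UMIs by library. Each pair of libraries shared 0 to 2 cell barcodes. These pair counts summed to 22, in which a barcode found in several libraries is counted once for each pair. Of the targeted gene, Acod1, the kept cells held 10 to 161 UMIs in the WT and 26 to 41 in the KO tumour-bearing libraries, and none in the naive libraries. UMIs of the 3' end can come from a transcript that still holds the inserted cassette, so these values do not check the genotype labels.

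The 8 genes lie on mouse chromosomes 2, 5, 11, 12, 13 and 15 (GRCm38), with Vim (2, 13573927 to 13582826), Lcn2 (2, 32384633 to 32388252) and Cd44 (2, 102811141 to 102901665) on the same chromosome. Serpina3n lies at chromosome 12, 104406729 to 104414329, on the plus strand, and Gfap at chromosome 11, 102887336 to 102900912, on the minus strand. All 8 are protein-coding. The promoters of the 4 members with the most UMIs or with the strongest tie to astrocytes are shown so that their letters can be set beside their levels. Each runs 5′ to 3′ from 250 bases before to 50 bases after the start site in RefSeq (GRCm38.p6), on the strand of the gene, and capitals mark matches to TTCNNNGAA, the form bound by STAT factors, to the same palindrome with 4 bases in place of 3 between TTC and GAA (the longer STAT form), or to TGANTCA, the AP-1 element.
Serpina3n (chr12:104406458-104406757, plus strand): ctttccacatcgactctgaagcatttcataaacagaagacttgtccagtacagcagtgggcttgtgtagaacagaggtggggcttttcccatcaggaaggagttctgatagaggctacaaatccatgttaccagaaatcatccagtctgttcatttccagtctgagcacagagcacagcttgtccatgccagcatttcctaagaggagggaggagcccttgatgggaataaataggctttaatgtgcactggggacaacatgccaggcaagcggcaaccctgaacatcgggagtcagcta
Gfap (chr11:102897151-102897450, minus strand): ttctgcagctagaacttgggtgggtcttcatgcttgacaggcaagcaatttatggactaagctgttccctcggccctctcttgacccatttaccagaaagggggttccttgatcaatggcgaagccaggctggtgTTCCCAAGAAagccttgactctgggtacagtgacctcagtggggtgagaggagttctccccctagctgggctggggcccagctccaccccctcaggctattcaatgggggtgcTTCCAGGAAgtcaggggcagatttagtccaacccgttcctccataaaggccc
Vim (chr2:13574061-13574360, plus strand): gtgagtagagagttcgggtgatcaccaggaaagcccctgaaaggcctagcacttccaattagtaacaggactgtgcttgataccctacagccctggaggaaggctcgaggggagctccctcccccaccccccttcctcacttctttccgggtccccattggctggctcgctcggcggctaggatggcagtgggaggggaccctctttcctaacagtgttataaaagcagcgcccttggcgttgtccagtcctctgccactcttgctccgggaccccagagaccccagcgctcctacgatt
Cd44 (chr2:102901616-102901915, minus strand): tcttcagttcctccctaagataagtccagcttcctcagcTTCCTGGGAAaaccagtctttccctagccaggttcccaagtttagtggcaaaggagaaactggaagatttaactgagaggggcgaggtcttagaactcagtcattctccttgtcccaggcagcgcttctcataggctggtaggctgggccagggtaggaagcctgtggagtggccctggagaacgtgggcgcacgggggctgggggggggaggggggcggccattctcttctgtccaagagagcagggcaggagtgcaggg
The Gfap promoter held TTCNNNGAA with its first base at -2 and the longer STAT form at -115 from the start site, and Cd44 held the longer STAT form at -211. Among the members not printed, Steap4 held TTCNNNGAA at -116, Lcn2 held the longer STAT form at -156 and Osmr held TGANTCA at 4. Serpina3n, Vim and S1pr3 held none of the 3 forms in this window. Read on both strands over all 32851 promoters of the same length, 8.30% held TTCNNNGAA, 6.95% held the longer STAT form and 7.81% held TGANTCA.

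Levels are given in CPM throughout. A UMI is a molecular barcode that counts 1 captured 3' end, so levels were compared between genes without a length correction. Intervals are exact 95% Poisson or binomial intervals and cover counting error only. The tests used edgeR's quasi-likelihood test on UMI sums per library with Benjamini-Hochberg adjustment over all genes tested and an adjusted p threshold of 0.05. No genotype and stage was repeated, so p-values measure the spread between libraries of different genotypes and stages, each from 1 mouse or 1 pool. In a sum over a class, fewer cells with a transcript and fewer transcripts in each cell cannot be told apart, and shares of cells with a UMI are therefore given where counts allow.

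The 8 genes spanned levels from 96908 UMIs in the kept cells for Vim to 5 UMIs for Steap4. Serpina3n had 12599 UMIs, Cd44 4621, Gfap 440, Osmr 318, S1pr3 139 and Lcn2 49. Lcn2 and Steap4 were under the filter on low counts in every comparison. Without that filter neither passed in any. Their lowest edgeR adjusted p-values were 0.0820 for Lcn2 (log2 fold change -2.34) and 0.0704 for Steap4 (-3.86), in tumour cells against the other cells. Tumour cells supplied 12142 of the 12588 Serpina3n UMIs of the tumour-bearing libraries, 96.5%, and the largest remaining part, 258 UMIs, came from oligodendrocytes. Class size enters this share, since tumour cells held more UMIs than all other named cells together in every tumour-bearing library. By level, the tumour-bearing pools were at 416.0 CPM in tumour cells and 341.6 CPM in oligodendrocytes. The naive libraries held 11 Serpina3n UMIs in all, of which 7 were in astrocytes.

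Serpina3n, a secreted inhibitor of serine proteases such as granzyme B and leukocyte elastase, was the member whose level rose in oligodendrocytes, the myelin-forming cells. It was at 0 CPM in the WT naive and 8.93 CPM in the KO naive oligodendrocytes, a total of 2 UMIs in 144 cells. In the tumour-bearing libraries it was at 162.5 CPM in WT early, 623.8 in KO early, 64.4 in WT intermediate, 400.7 in KO intermediate, 736.5 in WT late and 394.0 in KO late. The 2 naive libraries were below all 6 tumour-bearing libraries, and among the latter WT intermediate and WT early were the lowest. Pooled, the level was 341.6 CPM (301.2 to 386.0) against 4.09 CPM (0.495 to 14.8), a ratio of 83.6 with a counting interval of 22.9 to 694. The fitted log2 fold change was 6.29 (SE 1.00, edgeR adjusted p = 0.00497), higher in 6 of 6 libraries. With 2 UMIs in the naive cells, Serpina3n could pass the filter on low counts only through the tumour-bearing group. Its fitted size therefore depends on the prior count. Of 2674 genes tested in oligodendrocytes, 2.28% were called. It stayed past the threshold in all 20 alternatives run, with log2 fold changes from 5.52 to 8.49.

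**Figure D1:**
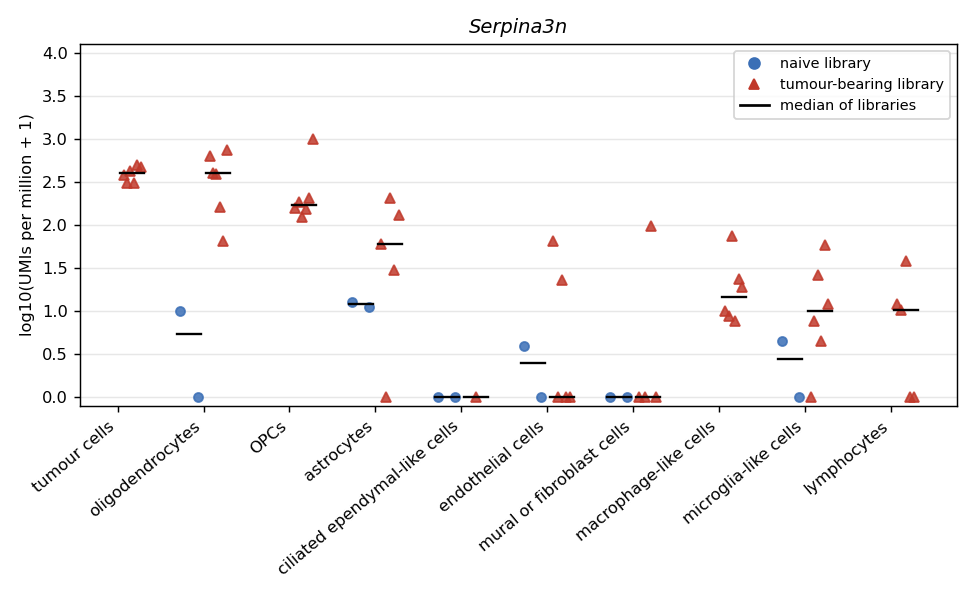
Serpina3n by cell class and library, as log10(CPM + 1), for sums of at least 5 cells; blue circles are naive libraries, red triangles tumour-bearing libraries and black lines the median of the libraries. Tumour cells (304.2 to 493.0 CPM) and tumour-bearing oligodendrocytes (64.4 to 736.5 CPM) lie together at the top, and naive oligodendrocytes (0 and 8.93 CPM) near the bottom.

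The Serpina3n UMIs of tumour-bearing oligodendrocytes were not spread evenly over the cells. They were found in 54 of 224 cells, 9 of these cells held 50% of the 258 UMIs, and the largest number in 1 cell was 34. With every cell thinned to 1000 UMIs, 17.0% of tumour-bearing oligodendrocytes (12.3 to 22.5) had a UMI against 1.39% of naive ones (0.169 to 4.93), at median depths of 2730 and 3091 UMIs. Without thinning the shares were 24.1% and 1.39%. In the same tumour-bearing libraries the thinned share was 0.565% in microglia-like cells, 1.78% in macrophage-like cells and 0.543% in lymphocytes, at median depths of 3029, 3253 and 2959.5 UMIs.

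Tumour cells, whose RNA can be free in the suspension, carried Serpina3n at 304.2 (WT early), 375.4 (KO early), 493.0 (WT intermediate), 309.9 (KO intermediate), 475.3 (WT late) and 418.9 CPM (KO late). Barcodes ranked below the first 1000 and down to 3000 in each table, smaller than the cells used, held 85.0 to 449.2 CPM in the tumour-bearing libraries and 4.84 and 7.77 CPM in the naive ones. The 6 tumour markers summed to 44.9 to 601 CPM in tumour-bearing oligodendrocytes and 3.77 to 17.9 CPM in naive ones, with 3 of the 6 detected in tumour-bearing cells and Gm14139, Dppa2 and Etv2 at 0. For each 100 UMIs of the tumour markers, tumour cells held 10.2 Serpina3n UMIs and oligodendrocytes 185.6. The other glia were above tumour cells too, OPCs at 94.1 (on 80 Serpina3n UMIs) and astrocytes at 41.2 (on 14). Macrophage-like cells were at 16.5, endothelial cells at 8.51 and microglia-like cells at 5.31. By library the oligodendrocyte ratio was 361.5, 177.4, 585.7, 666.7 and 145.0 in WT early, KO early, KO intermediate, WT late and KO late, and 10.7 in WT intermediate. WT intermediate was thus the 1 library in which the oligodendrocyte ratio was near that of tumour cells, 8.07 there. The 161 tumour-bearing oligodendrocytes with no tumour marker UMI held Serpina3n at 329.2 CPM, and the 63 with at least 1 such UMI at 371.2 CPM, beside 4.25 CPM in the naive cells with none. Of the 161, 72 were from WT early, and the order of the pair of values differed by library. The cells with none were lower in WT early (85.9 against 580.8 CPM) and KO late (180.6 against 631.3) and higher in KO early (711.2 against 505.9), WT intermediate (99.5 against 47.6), KO intermediate (446.2 against 134.1) and WT late (860.6 against 386.6). Of the other lists in oligodendrocytes, the lymphocyte list was at 0 CPM in naive and 0 to 148.6 CPM in tumour-bearing libraries with 9 of 10 markers detected and Gzmb at 0, and the astrocyte list was at 1708 to 2483 CPM in naive and 285.3 to 1556 CPM in tumour-bearing libraries, with 8 of 8 detected. The macrophage list was at 67.0 to 490.0 CPM in naive and 10.7 to 249.5 CPM in tumour-bearing libraries, with 9 of 10 markers detected in the latter and Mrc1 at 0.

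**Figure D2:**
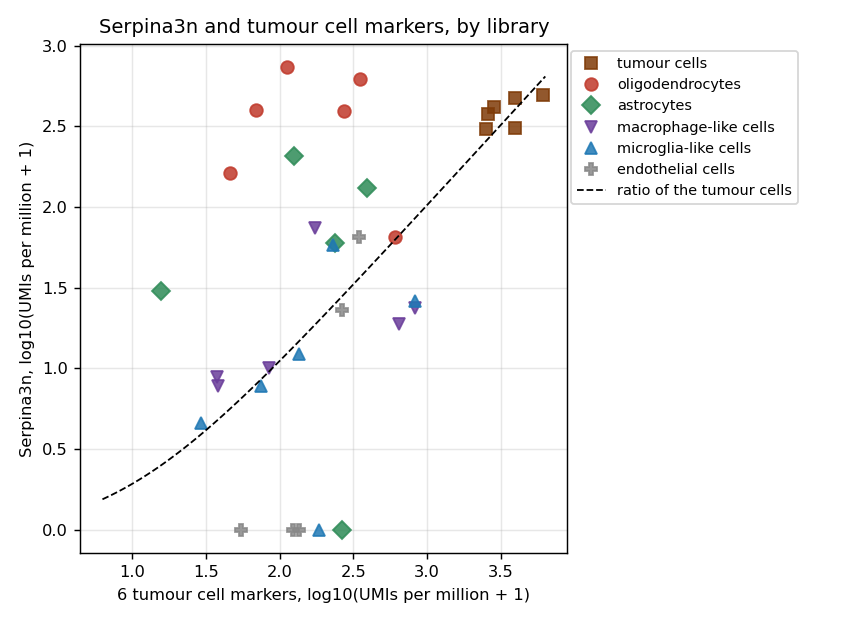
Serpina3n against the sum of 6 tumour cell markers in each tumour-bearing library and class, both as log10(CPM + 1); each point is 1 library of a class and the dashed line is the pooled ratio of the tumour cells. Oligodendrocytes of 5 libraries (red circles) lie far above the line and those of WT intermediate on it, while microglia-like and macrophage-like cells lie near the line in most libraries.

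Within tumour-bearing libraries the oligodendrocyte level was set against that of 5 other classes, chosen after the values had been seen. It was higher than in astrocytes in 5 of 5 libraries (mean difference 378.3 CPM, SD 214.5), in endothelial cells in 5 of 5 (446.2, SD 215.1), in lymphocytes in 5 of 5 (317.5, SD 213.4), in microglia-like cells in 6 of 6 (379.6, SD 270.9) and in macrophage-like cells in 6 of 6 (374.0, SD 260.0). These differences are a description, with no test. In WT intermediate the oligodendrocytes exceeded the microglia-like cells by 6.82 CPM only. OPCs were higher than oligodendrocytes in WT intermediate (203.6 against 64.4 CPM, on 4 UMIs in 1 of 5 OPCs) and WT late (992.0 against 736.5 CPM). In WT late 1 cell held 42 of the 51 OPC UMIs. Without the cells that held more astrocyte than OPC marker UMIs, the WT late OPCs were at 350.4 CPM, below the oligodendrocytes. Tumour cells were higher in WT early (304.2 against 162.5 CPM), WT intermediate (493.0 against 64.4 CPM) and KO late (418.9 against 394.0 CPM).

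In astrocytes, the cells for which reactive gliosis is named, Serpina3n was at 10.2 and 11.95 CPM in the WT and KO naive libraries. In the tumour-bearing libraries with at least 5 astrocytes it was at 29.2 (WT early), 59.0 (KO early), 0 (KO intermediate), 130.2 (WT late) and 207.3 CPM (KO late), and the tumour-bearing pool held 14 UMIs, of which 1 lay in the 3 WT intermediate astrocytes. Of these values 4 lay above both naive values and 1 lay below. The gene was under the filter on low counts there. Without the filter its log2 fold change was 2.28 (SE 0.83, edgeR adjusted p = 0.519), and the thinned share of cells with a UMI was 9.72% (3.999 to 19.01) against 1.39% (0.287 to 4.005). Serpina3n in OPCs was at 123.5 to 203.6 CPM in 5 libraries and 992.0 CPM in WT late. With 3 cells that held more astrocyte than OPC marker UMIs left out, the pooled OPC level went from 345.1 to 181.3 CPM. The OPC list itself summed to 4882 to 9012 CPM in these cells, the oligodendrocyte list to 1420 to 19090 CPM, the astrocyte list to 1324 to 10520 CPM and the tumour list to 77.9 to 763.6 CPM.

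Lipocalin 2, encoded by Lcn2, is secreted by reactive astrocytes and by neutrophils and starves bacteria of iron. Its 49 UMIs were nearly all in a few cells. One cell of the WT late library held 23 of them. That cell fell in the OPC class and carried 474 UMIs of the astrocyte list beside 25 of the OPC list. Tumour cells held another 23, of which the KO intermediate library carried the most, at 4.18 CPM. Cells classed as astrocytes, that cell not among them, held 0 Lcn2 UMIs, which allows up to 4.78 CPM in the naive and 16.1 CPM in the tumour-bearing pool.

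Vim, which encodes the intermediate filament protein of mesenchymal, endothelial, immune and reactive glial cells, was the member with the most UMIs. Its level rose in microglia-like cells, the resident phagocytes of the brain. It was at 38.7 CPM in WT naive and 10.5 in KO naive, and at 401.8 in WT early, 140.9 in KO early, 230.2 in WT intermediate, 195.1 in KO intermediate, 247.4 in WT late and 592.7 in KO late. No tumour-bearing library fell to the level of a naive one. The log2 fold change was 3.76 (SE 0.61, edgeR adjusted p = 0.000534), where 16.2% of 3261 genes tested were called, so a call in this class is common. With 11 UMIs in the naive cells, Vim could pass the filter on low counts only through the tumour-bearing group. The call is therefore a description. Leaving out the KO naive library ended the call (log2 fold change 2.95, edgeR adjusted p = 0.0594). In the same cells the macrophage list was at 474.1 to 715.4 CPM in the naive and 2018 to 5654 CPM in the tumour-bearing libraries, with all 10 markers detected in the latter. The microglia list was at 23890 to 25300 and 9520 to 14140 CPM, and the tumour list was at 0 in both naive libraries and at 28.4 to 819.7 CPM in the tumour-bearing ones, with 3 of 6 markers detected. The 135 tumour-bearing microglia-like cells with no tumour marker UMI held Vim at 302.3 CPM and the 42 with one at 403.2 CPM. The part of the macrophage markers in the Vim level was not tested.

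In astrocytes Vim was at 122.6 and 101.6 CPM in the WT and KO naive libraries. It was at 117.0 in WT early, 973.3 in KO early, 315.9 in KO intermediate, 2962 in WT late and 497.6 in KO late. WT early lay between the naive values and the other 4 lay above them. The log2 fold change of 2.96 (SE 0.79) missed the threshold (edgeR adjusted p = 0.0963), in a class where 0.982% of 611 genes passed, and 7 of 19 alternatives called it, with adjusted p from 7.86e-06 to 0.301. The thinned share of astrocytes with a Vim UMI was 31.9% (21.4 to 44.0) in tumour-bearing and 7.41% (4.29 to 11.8) in naive libraries. Tumour markers were at 14.6 to 390.7 CPM in these astrocytes against 3.41 to 11.95 CPM in naive ones, with 3 of 6 detected. The 51 tumour-bearing astrocytes with no tumour marker UMI held Vim at 1041 CPM and the 21 with one at 336.1 CPM. Of the 132 Vim UMIs behind the first value, 87 were in 8 cells of WT late (5153 CPM). In KO intermediate the cells with none were the lower, at 202.4 against 438.8 CPM, as in WT early, at 116.3 against 121.9 CPM.

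Oligodendrocytes held Vim at 11.3 and 49.1 CPM in the naive libraries and at 62.2, 317.6, 826.1, 68.4, 193.3 and 203.8 CPM in WT early, KO early, WT intermediate, KO intermediate, WT late and KO late. All 6 lay above both naive values. The log2 fold change was 3.06 (SE 0.92, edgeR adjusted p = 0.118), and 3 of 20 alternatives called it. Vim was at 99.7 CPM in the cells with no tumour marker UMI and 505.4 CPM in the cells with such UMIs, where 74 of the 113 Vim UMIs came from WT intermediate (1174 CPM). In WT early the values were 65.4 and 44.7 CPM and in KO intermediate 68.7 and 67.0 CPM. For each 100 tumour marker UMIs oligodendrocytes held 119.4 Vim UMIs and tumour cells 74.4.

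Endothelial cells held Vim at 886.0 and 907.0 CPM in the naive libraries, and at 2051 (WT early), 1871 (KO early), 958.9 (KO intermediate), 4360 (WT late) and 2054 CPM (KO late). All 5 lay above the naive values, KO intermediate by the least. The log2 fold change was 1.23 (SE 0.36, above both naive libraries in 4 of 5 once the normalization factors were applied, edgeR adjusted p = 0.0544), in a class where 5.99% of 1168 genes were called, and 6 of 20 alternatives called it. The mural list was at 1283 to 2197 CPM in naive and 795.0 to 2404 CPM in tumour-bearing endothelial cells, with 7 of 9 markers detected in the latter, and the macrophage list reached 2054 CPM in 1 library. The tumour list was at 6.56 to 20.95 CPM in naive and 53.98 to 344.1 CPM in tumour-bearing endothelial cells, with 3 of 6 detected in the latter. The 66 tumour-bearing endothelial cells with no tumour marker UMI held Vim at 2103 CPM and the 23 with one at 1842 CPM. Mural or fibroblast cells held Vim at 2512 to 3578 CPM in the 4 tumour-bearing libraries summed, beside 2110 to 3628 CPM in tumour cells. Ciliated ependymal-like cells held it at 1153 (WT naive), 1262 (KO naive) and 1419 CPM (WT early).

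Gfap, the filament protein by which astrocytes are stained, had its 2 highest pooled levels in astrocytes, 397.3 CPM in tumour-bearing and 111.4 CPM in naive libraries. Naive astrocytes held it at 153.3 (WT) and 74.7 CPM (KO). Tumour-bearing astrocytes held it at 234.0 (WT early), 88.5 (KO early), 52.6 (KO intermediate), 1335 (WT late) and 331.7 CPM (KO late). The groups overlapped, with KO intermediate below both naive values and KO early between them. The log2 fold change of 1.63 (SE 0.63) did not pass (edgeR adjusted p = 0.411, higher in 3 of 5 libraries). One cell held 34 of the 74 Gfap UMIs of tumour-bearing astrocytes, 46.0%. The thinned share of cells with a UMI was 16.7% (8.92 to 27.3) against 4.63% (2.24 to 8.35). The OPC class of WT late held Gfap at 447.4 CPM, and its pool over libraries at 99.2 CPM. Ciliated ependymal-like cells held it at 4.65 (WT naive) and 86.0 CPM (KO naive, 9 UMIs in 4 of 18 cells), the latter above the KO naive astrocytes. Naive oligodendrocytes were at 7.54 and 22.3 CPM, and 4 of the 6 tumour-bearing oligodendrocyte sums were at 0.

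**Figure D3:**
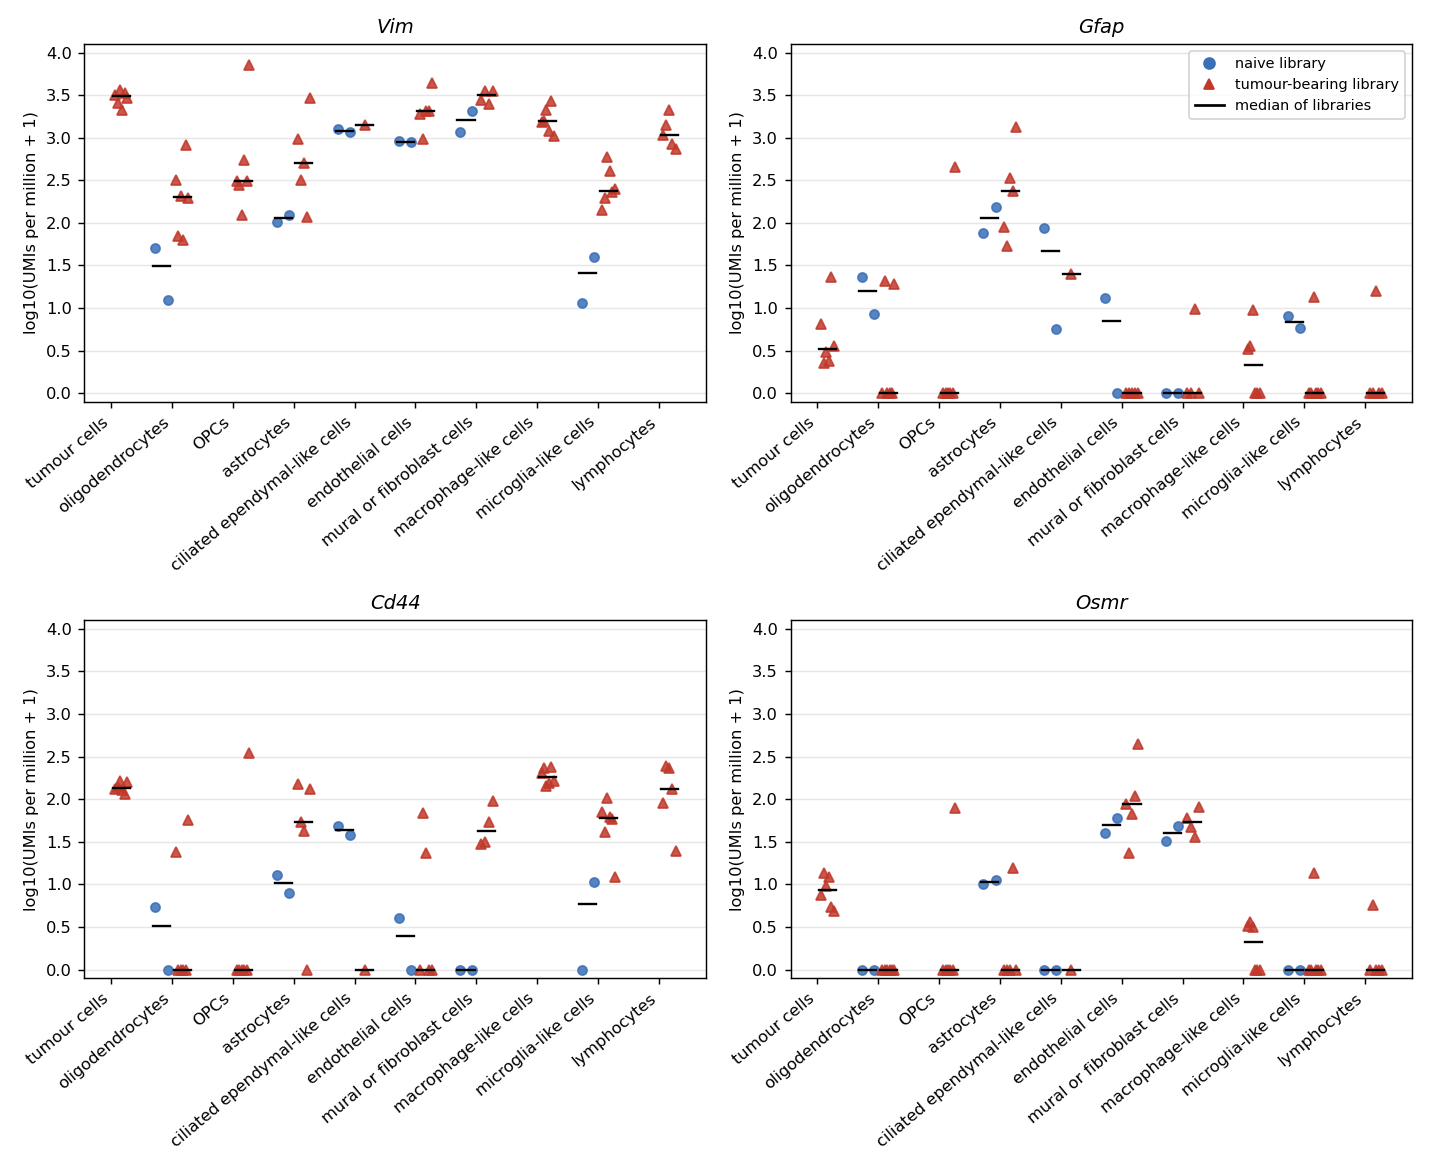
Vim, Gfap, Cd44 and Osmr by cell class and library, as log10(CPM + 1), for sums of at least 5 cells; blue circles are naive libraries, red triangles tumour-bearing libraries and black lines medians. Gfap medians are highest in astrocytes (52.6 to 1335 CPM by library), with 1 OPC library (447.4 CPM) and KO naive ciliated ependymal-like cells (86.0 CPM) within that range. Osmr is highest in endothelial and mural or fibroblast cells. Cd44 is high in tumour, macrophage-like and lymphoid cells and, in WT late alone, in OPCs (350.1 CPM). Vim is high in tumour, macrophage-like and lymphoid cells and also in mural or fibroblast cells (2512 to 3578 CPM in tumour-bearing libraries), endothelial cells and ciliated ependymal-like cells.

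Cd44, the hyaluronan and osteopontin receptor, was carried by tumour cells at 128.3 (WT early), 131.6 (KO early), 112.7 (WT intermediate), 136.4 (KO intermediate), 157.1 (WT late) and 162.9 CPM (KO late). Macrophage-like cells held 142.3 to 239.6 CPM and lymphocytes with at least 5 cells 23.9 to 242.8 CPM, so these 3 classes overlapped. Sums of few cells reached higher, with dendritic cells of KO early at 499.0 CPM (9 UMIs in 4 of 7 cells). OPCs of WT late were at 350.1 CPM (18 UMIs in 2 of 11 cells). In microglia-like cells Cd44 was at 9.67 and 0 CPM in the naive libraries and at 60.5, 70.5, 57.6, 40.4, 11.2 and 100.9 CPM in WT early, KO early, WT intermediate, KO intermediate, WT late and KO late. All 6 lay above both naive values, WT late by the least. The gene was under the filter there. Without the filter its log2 fold change was 3.51 (SE 0.86, edgeR adjusted p = 0.00296), and pooled counts gave a ratio of 13.6 with an interval of 3.52 to 116. In astrocytes it was at 6.81 and 11.95 CPM in naive and at 0, 147.5, 52.6, 130.2 and 41.5 CPM in tumour-bearing libraries in the order above without WT intermediate, with an unfiltered log2 fold change of 2.26 (SE 0.90, edgeR adjusted p = 0.684). Among naive classes, ciliated ependymal-like cells were the highest of those with at least 20 cells, at 40.7 CPM pooled.

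Osmr, the receptor subunit that binds oncostatin M together with gp130, was highest in endothelial cells and in mural or fibroblast cells. Endothelial cells held it at 59.1 (WT naive) and 38.9 CPM (KO naive), and at 108.0 (WT early), 86.0 (KO early), 22.3 (KO intermediate), 448.2 (WT late) and 66.2 CPM (KO late). The groups overlapped, since KO intermediate lay below both naive values. The pooled level was 120.6 CPM (85.4 to 165.6) in tumour-bearing and 48.5 CPM (33.0 to 68.9) in naive cells, and the thinned share was 15.7% (8.88 to 25.0) against 4.42% (1.93 to 8.52). Across libraries the unfiltered log2 fold change was 1.00 (SE 0.53, edgeR adjusted p = 0.754). Mural or fibroblast cells were at 62.8 CPM in tumour-bearing and 37.4 CPM in naive pools, a ratio of 1.68 with an interval of 0.410 to 14.8. Astrocytes held 9.55 and 10.7 CPM in naive and tumour-bearing pools, on 6 and 2 UMIs, and oligodendrocytes held none in 368 cells.

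S1pr3, a receptor for sphingosine-1-phosphate, was highest in mural or fibroblast cells, at 261.9 CPM (143.2 to 439.5) in the naive and 158.6 CPM (118.8 to 207.4) in the tumour-bearing pool. Naive ciliated ependymal-like cells held it at 62.6 CPM (38.2 to 96.6). Astrocytes held none in 216 naive cells and 9 UMIs in 72 tumour-bearing cells, 48.3 CPM, at least 10.1-fold higher than the level that 3 counts would give in the naive pool. The tumour-bearing UMIs lay in 3 libraries, with WT late at 162.8 and KO late at 41.5 CPM and the rest in the 3 WT intermediate astrocytes, while WT early, KO early and KO intermediate had 0. Without the filter the log2 fold change was 4.72 (SE 1.60, edgeR adjusted p = 0.385). Tumour cells held 5 UMIs in 3362 cells. Steap4, a metalloreductase of the plasma membrane, had 5 UMIs, in endothelial cells, a lymphocyte, an OPC and a ciliated ependymal-like cell, which is too few to order the classes.

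Tumour cells were next set against all other named cells of the same library, with the library as a block. Of 13005 genes 64.9% were called, so single calls here say little. Serpina3n was higher in tumour cells by 2.26 on the log2 scale (SE 0.26, edgeR adjusted p = 2.16e-05, 6 of 6 libraries), and Vim by 1.00 (SE 0.10, adjusted p = 9.40e-06, 6 of 6). S1pr3 was lower in tumour cells (log2 fold change -6.39, SE 0.67, edgeR adjusted p = 1.22e-05), and so was Gfap (-2.38, SE 0.74, adjusted p = 0.0151), although tumour cells had the higher Gfap level in 2 of 6 libraries. Cd44 (0.29, SE 0.14, edgeR adjusted p = 0.0971) and Osmr (-0.82, SE 0.51, adjusted p = 0.183) did not pass. The median of all genes lay at 0.11, and the calls for Serpina3n, Vim, S1pr3 and Gfap held in every alternative run.

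Macrophage-like cells, a class named by markers of monocyte-derived cells, were compared with microglia-like cells of the same library, where 30.6% of 2373 genes were called. Vim was at 1209, 1542, 2704, 1567, 1054 and 2100 CPM in macrophage-like cells of WT early, KO early, WT intermediate, KO intermediate, WT late and KO late. Each value was above that of the microglia-like cells of its library, with a log2 fold change of 2.34 (SE 0.25, edgeR adjusted p = 2.60e-06). Cd44 was likewise higher in 6 of 6 libraries, by 1.58 (SE 0.30, edgeR adjusted p = 0.000781). Both calls held in all 18 alternatives. The other members were under the filter in this comparison.

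The comparison of KO with WT addressed whether loss of Acod1, the enzyme that makes itaconate, goes with a change in these genes. In tumour cells 0 of 13709 genes passed (0% called, edgeR), 852 had an unadjusted p under 0.05, and DESeq2 called 67. Serpina3n differed by -0.14 (SE 0.22), Gfap by -1.03 (SE 1.03), Vim by 0.22 (SE 0.24), Cd44 by 0.16 (SE 0.16) and Osmr by 0.71 (SE 0.47), all with edgeR adjusted p from 0.970 to 0.990. In oligodendrocytes 0 of 2014 genes passed (0% called, edgeR), with 95 at an unadjusted p under 0.05 and none by DESeq2. Serpina3n in oligodendrocytes was 1.06 higher in KO (SE 0.48, edgeR adjusted p = 0.985) in 3 of 4 stage pairs. The naive libraries are 1 of these 3, on 2 UMIs in all. The late pair ran the other way. With the WT late or the KO late library left out the difference was 2.16 or 2.17 (edgeR adjusted p = 0.0189 and 0.00753). A late library without its partner adds nothing to a difference within stages. Both values therefore rest on the same 3 pairs and are not separate results. The value of 1.06 thus depends on the late pair. Vim in oligodendrocytes differed by 9.42e-05 (SE 0.65, edgeR adjusted p = 0.9997), and by -1.07 to 1.39 over the alternatives, so its direction is not settled.

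**Figure D4:**
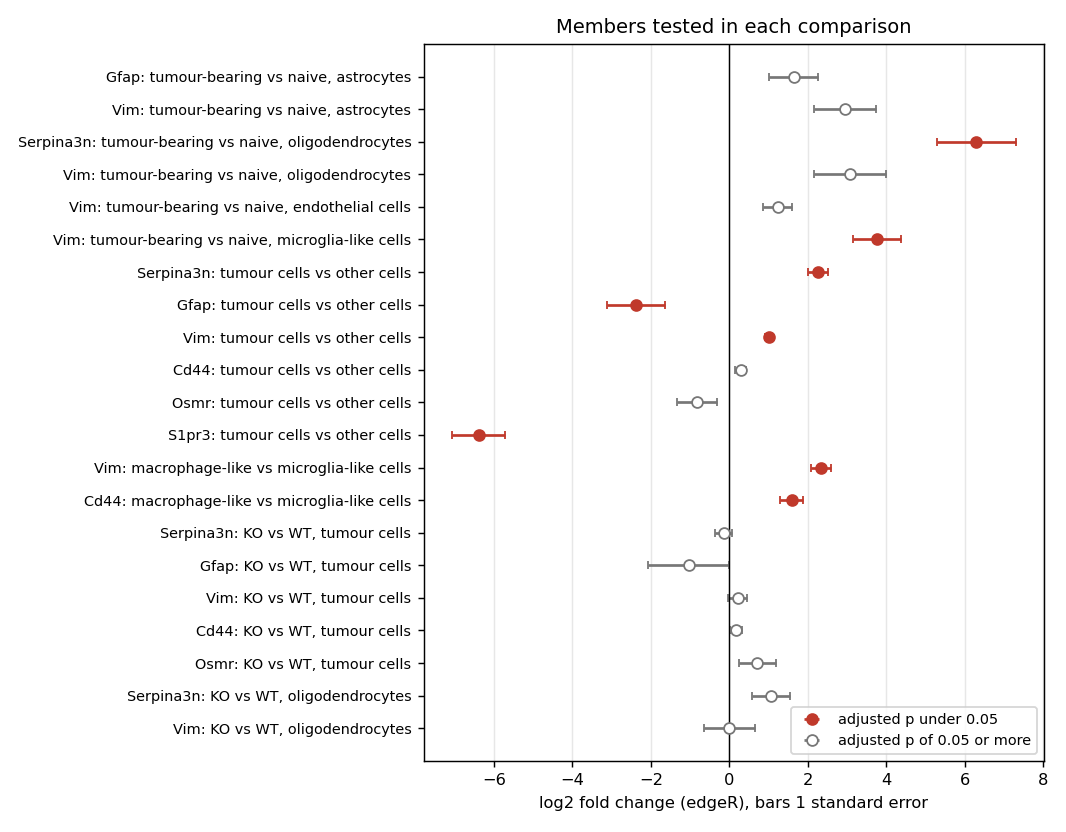
Log2 fold changes of the members in each comparison where they passed the filter on low counts (edgeR), with bars of 1 standard error; filled red points have an adjusted p under 0.05 and open points do not. Serpina3n in oligodendrocytes (6.29) and Vim in microglia-like cells (3.76) are the calls between naive and tumour-bearing libraries, and no member passes between KO and WT. Both calls are of genes that could pass the filter only through the tumour-bearing group.

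Genes that belong to the same response were taken from 7 lists. In oligodendrocytes, where 2.28% of all genes tested were called, of the astrocyte genes induced by lipopolysaccharide (A1 list, 12 genes) 5 were tested and 4 rose: the interferon-induced GTPase Iigp1 by 9.19 (SE 1.96), the class I molecules H2-T23 by 5.76 (SE 1.29) and H2-D1 by 4.19 (SE 0.82), and the immunoproteasome subunit Psmb8 by 4.64 (SE 0.99), with edgeR adjusted p from 0.0109 to 0.0250. Of the disease-associated oligodendrocyte genes (11), 10 were tested and 7 rose, with a median log2 fold change of 3.43 beside 0.0199 over all genes tested. The 5 largest were Igtp (8.68), Psmb9 (5.29), H2-D1 (4.19), B2m (3.96) and C4b (3.74), whose products are an interferon-induced GTPase, an immunoproteasome subunit, the class I chains and a complement protein. Neither list held a gene that fell. In the naive pool Iigp1 and Igtp were at 0, Psmb9 at 2.04, H2-T23 at 6.13 and Psmb8 at 16.4 CPM. Genes this low could pass the filter on low counts only where tumour-bearing cells held them, so the counts and the median are a description of the genes tested and not of the lists. Iigp1 and Igtp were at 0 UMIs in naive oligodendrocytes, so their fitted sizes depend on the prior count, and tumour cells held them at 491.3 and 445.6 CPM beside 484.6 and 341.6 CPM in tumour-bearing oligodendrocytes. The part of tumour RNA in these list genes was not tested. None of the A2 (ischaemia), pan-reactive or SERPINA3 family genes could be tested there, and neither of the 2 OSM, LIF, IL-6 and STAT3 signalling genes tested nor any of 3 partners of the members passed. The 10 other SERPINA3 family genes had at most 306 UMIs each in the kept cells (Serpina3g) beside 12599 for Serpina3n. Reads shared with these near-identical neighbours could be assigned to either gene, so the split within the family is uncertain.

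In astrocytes, where 0.982% of all genes tested were called, the lists were thin: 1 of 1 A1 gene tested rose, H2-D1 by 2.72 (SE 0.48, edgeR adjusted p = 0.00721), which is also the 1 of 4 disease-associated oligodendrocyte genes that rose, and no pan-reactive, A2, signalling or SERPINA3 gene could be tested. In endothelial cells, beside 5.99% of all genes called, 2 of 6 A1 genes rose, Iigp1 by 1.37 (SE 0.36) and Psmb8 by 1.29 (SE 0.36), with 2 of 4 disease-associated genes, H2-K1 by 1.28 (SE 0.33) and B2m by 1.17 (SE 0.33). None of 3 pan-reactive, 2 A2, 1 signalling and 3 partner genes tested passed there. In the naive pools H2-D1 was at 62.1 CPM in astrocytes, and Iigp1 at 112.7 and Psmb8 at 165.9 CPM in endothelial cells. At these levels they could pass the filter on low counts only with the tumour-bearing sums. The list counts of these 2 classes are therefore a description.

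In microglia-like cells, beside 16.2% of all genes called, the chemokine gene Cxcl10 (7.98, SE 0.94) was the 1 pan-reactive gene tested and rose, as did 6 of 7 A1 genes with Iigp1 (8.40) and Gbp2 (6.24) the largest, both A2 genes tested, Ptgs2 (6.83) and Cd14 (2.00), and 6 of 8 disease-associated oligodendrocyte genes, led by C4b (5.09). Of 6 signalling genes, Osm, the ligand of OSMR, rose by 2.08 (SE 0.41, edgeR adjusted p = 0.00207), and the receptor genes Il6ra and Il6st fell by 1.56 (SE 0.32) and by 1.33 (SE 0.37). Spp1, which encodes the CD44 ligand osteopontin, rose by 9.36 (SE 2.10, edgeR adjusted p = 0.00587) from 0 UMIs in the naive pool, so the fitted size depends on the prior count. Cxcl10 (2.03 CPM), Iigp1 (0), Gbp2 (10.2 CPM) and Ptgs2 (2.03 CPM) were near 0 in that pool too. Such genes could pass the filter on low counts only through the tumour-bearing group, so the counts here are a description. Between the myeloid classes, where 30.6% of all genes were called, macrophage-like cells were higher in Osm (0.55, SE 0.17), S100a10 (3.24), Ptgs2 (1.53), Srgn (1.15), Cd14 (1.07) and Psmb8 (0.55) and lower in Il6ra (-1.30) and Gbp2 (-0.69). No disease-associated, partner or pan-reactive gene passed in that comparison.

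In tumour cells against the other cells 64.9% of all genes were called, so list counts near that share say little of a list. There, 9 of 11 signalling genes tested were lower, among them Il6 (-6.35, SE 0.34), Osm (-4.43, SE 0.18), Il6ra (-3.05), Lifr (-1.90) and Jak1 (-1.87), and none was higher, with a median of -1.43 beside 0.11 for all genes. Of 13 partners 6 were higher, namely the filament gene Prph (4.68), the hyaluronan synthase Has2 (2.99), the hyaluronan receptor Hmmr (2.69), S1pr2 (2.58), Plec (1.69) and Nes (1.12). Spp1 (-5.44), S1pr5 (-5.12), S1pr1 (-4.37), Synm (-2.81) and Slc22a17 (-1.54) were lower. The A1 and A2 lists were divided, with 3 higher and 4 lower of 10, and 3 higher and 3 lower of 8, and of the disease-associated list 2 of 11 were higher and 7 lower. Of the pan-reactive genes Hspb1 was lower (-4.92) among 4 tested, and of the SERPINA3 family Serpina3g was lower (-5.17), opposite to Serpina3n. Between KO and WT no gene of any list passed in tumour cells or in oligodendrocytes.

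Likeness of level was taken as Pearson's r of log2(CPM + 10) over 18 pools of class and condition with at least 20 cells, among 14714 genes; it is a description, since pools of a condition share libraries and depth. Serpina3n was most like Lbh (0.86), Chst3 (0.82) and Piezo2 (0.82). Gfap was most like Chrdl1 (0.96), Kcnj16 (0.95) and Gpr37l1 (0.94), and Vim most like Anxa2 (0.90), S100a11 (0.89) and Ifitm3 (0.88). Cd44 was most like Lgals3 (0.90), S100a4 (0.90) and Brip1 (0.85). Osmr was most like Akap12 (0.95), Ehd2 (0.94) and Foxc1 (0.94), and S1pr3 was most like 1700052K11Rik (0.79), Nbl1 (0.79) and Marveld1 (0.78).

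In tumour-bearing oligodendrocytes 105 of 224 cells had a UMI of any member and 26 of 2 or more, beside 18 and 1 of 144 naive cells. In tumour-bearing astrocytes the counts were 43 and 18 of 72, and in naive astrocytes 57 and 13 of 216. In endothelial cells they were 77 and 32 of 89 in tumour-bearing and 152 and 32 of 181 in naive libraries. In mural or fibroblast cells they were 40 and 24 of 40 in tumour-bearing and 17 and 6 of 18 in naive libraries. In tumour cells of the tumour-bearing libraries they were 3329 and 2692 of 3362. These counts were not matched for depth. Over all kept cells 182 had 4 members and 13 had 5, of which 11 were tumour cells, and none had 6 or 7. One cell had all 8. It came from the WT late library, fell in the OPC class, and held 23706 UMIs, among them 228 of Vim, 42 of Serpina3n, 23 of Lcn2, 15 of Gfap, 10 of S1pr3, 7 of Cd44, 3 of Osmr and 1 of Steap4. It carried 474 UMIs of the astrocyte list with 8 of 8 markers detected, 25 of the OPC list with 3 of 7 detected and Pdgfra and Tnr at 0, 17 of the oligodendrocyte list and 2 of the tumour list. It was classed with OPCs under 3 other clustering settings, with choroid plexus epithelial-like cells under Leiden clustering and with tumour cells when doublets were removed. Without the cells that the clustering left unassigned it was left out. Its values are part of the OPC sums given above.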

How the data were processed

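Each of the 8 Drop-seq libraries came as a deposited table of UMI counts over 3000 cell barcodes. Per the labels and the methods, the authors made these counts with the Drop-seq pipeline, Picard and STAR on GRCm38 (mm10), after bcl2fastq 2.0 as named in the submitters' processing notes, with no normalization. No other columns of per-sample values were present.

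From the deposited counts, the top 1000 barcodes per library, genes in at least 30 cells (18473 of 32502) and cells with at least 1000 genes were kept, which left 5698 cells. After the study's scheme, cells were clustered on 50 principal components of log2(CPM + 1) without the 8 genes, by tSNE (perplexity 50, Rtsne 0.17) and HDBSCAN (minimum 19 cells, scikit-learn 1.9.0), which gave 13 clusters before division. The 189 unassigned cells took the majority class of their 15 nearest clustered cells. Clusters were named from marker lists, so names are rebuilt and can differ from the study's. Doublets were kept, and removed only in an alternative, since Scrublet marked 1 to 40 cells per library.

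UMIs were summed over at least 5 cells per class and library and tested with edgeR 4.0.16 in R 4.3.3 (TMM, filterByExpr, quasi-likelihood test, Benjamini-Hochberg threshold 0.05), with genotype as covariate for tumour-bearing against naive, the library as block between classes, and the stage as block for KO against WT. A standard error (SE) is the log2 fold change over the root of its F statistic, or the Wald error where F was under 0.01. Intervals (scipy 1.17.1) and floors of 3 counts cover counting error only. Tests were checked on simulated data: of 200 genes changed 4-fold, 80.5% were recovered in tumour-bearing against naive oligodendrocytes (2674 genes), 81% in astrocytes (611) and 87.5% in KO against WT tumour cells (13709). The lowest shares were 73.5% in microglia-like cells (3261) and 76% in macrophage-like against microglia-like cells (2373). DESeq2 1.42.0 was an alternative.

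The members and gene lists were chosen with earlier results of these data known. The text names all 8 members, among list genes chiefly the 5 with the largest change each way that passed in a comparison, and the 3 genes most like each member with at least 100 UMIs.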

Additional observations from a re-analysis of the deposited data

Results flagged for a closer look

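In groups of 4 to 6 tumour-bearing libraries, 1 library stood apart from the others by Dixon's criterion in 10 of the 25 groups of member and class with enough UMIs. Chance flags about 1 in 20 among independent, normally spread values, which these are not. Several flags share the WT late OPC sum, and Gfap and Lcn2 were at 0 in the OPCs of all other libraries. The flags are therefore a description and do not show an excess over chance.

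The WT late library carried 6 of the 10. Its astrocytes held Gfap at 1335 CPM, and 1 cell held 34 of the 74 Gfap UMIs of tumour-bearing astrocytes. Its OPC class held Serpina3n at 992.0, Gfap at 447.4, Vim at 7080 and Lcn2 at 447.4 CPM. With the astrocyte-marked cells left out, an alternative chosen after seeing the data, the same OPC sum held Serpina3n at 350.4 and Vim at 450.5 CPM, and no UMI of Gfap or Lcn2. Its 8 endothelial cells held Osmr at 448.2 CPM.

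Oligodendrocytes of WT intermediate held Vim at 826.1 CPM, and their tumour marker sum of 600.8 CPM was the highest among the 6 libraries. Tumour cells of WT intermediate held Gfap at 22.23 CPM. Tumour cells of KO intermediate held Lcn2 at 4.176 CPM, where 1 cell carried 14 UMIs. Macrophage-like cells of KO late held Serpina3n at 73.29 CPM. The 39 of them with a tumour marker UMI held it at 174.3 CPM and the 76 with none at 10.49 CPM. Their oligodendrocyte list, at 1429 CPM, was also the highest among the 6 libraries. The source of these Serpina3n UMIs was not tested.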

How the results depend on the processing

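Serpina3n in oligodendrocytes kept its call in all 20 alternatives, and the calls of Serpina3n, Vim, Gfap and S1pr3 in tumour cells and of Vim and Cd44 in macrophage-like cells held in all of theirs. Counts of called genes moved more. In astrocytes (6 genes) they were 11 with DESeq2, 43 without the filter on low counts, 18 with at least 10 cells per sum, 34 with 500 genes per cell and 10 with doublets removed, and 3 to 22 with 1 library left out (3 without KO naive, 22 without KO late). In oligodendrocytes (61) they were 213 without the filter and 3 to 80 with 1 library left out (3 without KO naive, 27 without KO late). In endothelial cells (70) they were 154 without the filter, 44 with cells carrying tumour RNA left out, 222 with mural or fibroblast cells kept, and 41 to 99 with 1 library left out. In microglia-like cells (529) leaving out 1 library gave 57 to 654 (57 without KO naive, 115 without WT naive). Between macrophage-like and microglia-like cells (726) the count was 1498 without the filter and 480 to 959 with 1 library left out (480 without KO intermediate). Tumour cells against the other cells (8444) stayed at 7641 to 8215 with 1 library left out. Between KO and WT tumour cells (0) it was 67 with DESeq2, 499 without the filter, 2 with Leiden clustering, 2 with 500 genes per cell, 1 with unassigned cells left out, and 1 to 68 with 1 library left out (68 without WT early). Between KO and WT oligodendrocytes (0) it was 21 without the filter and 0 to 14 with 1 library left out.

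Among the members, Vim in astrocytes passed in 7 of 19 alternatives, in oligodendrocytes in 3 of 20 (without the filter, WT early or WT intermediate) and in endothelial cells in 6 of 20. Gfap in astrocytes passed with 500 genes per cell (edgeR adjusted p = 0.00397, range over alternatives to 0.998), Cd44 in tumour cells against the other cells in 1 of 17 alternatives, and Osmr there without KO intermediate (-1.28). KO against WT reversed in tumour cells with 1 library left out for Gfap (-2.42 to 0.75) and Serpina3n (-0.39 to 0.095). Vim in KO against WT oligodendrocytes was -0.051 without the filter, -0.68 without the block, -0.21 with Leiden clustering, -0.024 with 500 genes per cell, -0.20 with doublets removed, -0.33 with cells carrying tumour RNA left out, and -1.07 to 1.39 with 1 library left out. The cause was not tested. The single naive library per genotype and the 3 to 22 astrocytes of each tumour-bearing library limit these results, and Lcn2 and Steap4 were under the filter on low counts in every comparison. No paired analysis was possible because the replicate numbers only follow the order of deposit; this concerns pairing by number alone, since pairing by library and by stage was part of the main tests.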

Other observations

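Of the SERPINA3 family, Serpina3g and Serpina3f followed other classes than Serpina3n. Serpina3g was pooled at 65.9 CPM in macrophage-like, 30.6 in tumour-bearing microglia-like, 38.1 in tumour-bearing endothelial and 1.27 in tumour cells, and at 0 in naive endothelial and naive microglia-like cells. Serpina3f was at 53.9 CPM in tumour-bearing microglia-like, 26.4 in macrophage-like and 1.37 in tumour cells. Spp1, which encodes the CD44 ligand osteopontin, was at 7351 CPM in the tumour-bearing mural or fibroblast pool, 1937 in macrophage-like, 627.9 in tumour-bearing microglia-like and 37.5 in tumour cells. These pooled levels were not tested against each other, and the tests that were run on Spp1 and Serpina3g are given above.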
